A study of Mus musculus with 40 samples.

Results

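The genes described here were 7 receptor chains for myeloid cytokines, Csf1r, Csf2ra, Csf2rb, Csf2rb2, Csf3r, Il3ra and Il6ra, picked by their symbols out of 26411 genes counted. All 7 passed the filter on low counts in fetal liver LSK cells at E14.5, where 13071 genes were tested. The list was drawn up with the expression of these genes in those LSK libraries already known. Their levels and differences at E14.5 are therefore given as a description, with intervals but without p-values of single receptors. Where receptors are said to pass a false discovery rate or p threshold, this places them among all genes and is not a test of them.

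The study asked what is lost when the lysine acetyltransferases KAT6A (MOZ) and KAT6B (MORF) keep their protein but not their catalytic activity. Mice on a C57BL/6J background carried germline point mutations, present in every cell, in the acetyltransferase domain: G656E in Kat6a (Kat6aE/E), G577E in Kat6b (Kat6bE/E), or both (Kat6aE/E;Kat6bE/E, the double point mutant). LSK cells, the lineage-negative SCA1+ c-KIT+ fraction that holds haematopoietic stem and multipotent progenitor cells, were sorted from E14.5 fetal livers, with 4 fetuses each of WT, Kat6aE/E, Kat6bE/E and double point mutant genotype, 16 bulk RNA-seq libraries in all. Whole E9.5 embryos, 4 per genotype and 24 in all, covered the same genotypes and also Kat6a-/- and Kat6b-/- embryos homozygous for deletion alleles.

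The receptors share a plan. GM-CSF and IL-3 each bind a private alpha chain, encoded by Csf2ra and Il3ra, which then pairs with a signalling beta chain. Mice, unlike humans, have a pair of beta chains: the common beta chain Csf2rb serves GM-CSF, IL-3 and IL-5, and its near copy Csf2rb2 serves IL-3 alone. Il6ra binds IL-6 and signals through gp130 (Il6st), Csf3r pairs with itself to receive G-CSF, and Csf1r is a receptor tyrosine kinase for M-CSF and IL-34. Apart from Csf1r these chains have no kinase of their own and signal through JAK kinases and STAT factors, which induce SOCS proteins that limit the signal. Together they direct survival, division and maturation of granulocytes, monocytes and macrophages.

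Depth at E14.5 ran from 12270376 to 59216547 counted read pairs per library, and each receptor had at least 183 counts in every library. The 9 litters were spread unevenly. WT replicates 1 to 3 and Kat6aE/E replicate 1 came from litter 753, double point mutant replicates 2 to 4 from litter 1045, and double point mutant replicate 1 shared litter 970 with Kat6bE/E replicate 1. The point mutations leave the transcripts in place, and Kat6a was counted at 174 ± 8.35 CPM (read pairs scaled to library size with TMM factors, mean ± SD, n = 4) in WT and 180 ± 5.63 in Kat6aE/E, and Kat6b at 35.6 ± 3.40 in WT and 31.1 ± 6.61 in Kat6bE/E, so gene counts do not check these genotypes. At E9.5 Kat6a-/- embryos still had Kat6a at 166 ± 4.65 CPM against 176 ± 8.79 in WT, and Kat6b-/- embryos had Kat6b at 54.5 ± 2.75 CPM against 40.5 ± 2.51, a log2 difference of 0.41 ± 0.07 (limma FDR = 0.00441), so gene counts do not show the deletions either. Kit, which encodes c-KIT, stood at 351 to 552 CPM in the 16 libraries. Ly6a, which encodes SCA1, was low at 0.937 to 10.3 CPM, and the granulocyte gene Ly6g was at or near 0 (at most 2.95 CPM). Mpo, an enzyme of early granulocyte and monocyte progenitors, reached 2483 to 5120 CPM, and Itgam, which encodes MAC1, 35.2 to 114 CPM. The lineage antibodies listed in the methods covered lymphoid antigens, GR1 and TER119 but not MAC1. The summed CPM of 9 erythroid genes ranged from 535 to 15759 and was highest in Kat6aE/E replicate 2 and double point mutant replicates 2 to 4.

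In Kat6aE/E LSK cells Csf2rb2, Csf2rb, Csf1r and Il6ra were higher than in WT, by 1.54-, 1.37-, 1.33- and 1.32-fold, whereas Csf3r, Il3ra and Csf2ra had fitted folds of 0.989, 1.05 and 1.14. These folds, like all fitted differences given here, come from a model across all genes that held 4 surrogate variables and treated litter as a random effect. The 7 receptors had a median log2 difference of 0.40 against -0.01 for all genes tested, with 6 of 7 above 0 where 45.9% of all genes were. The 4 higher receptors were past a false discovery rate (FDR) of 0.05 in limma, a threshold that 96 genes (0.734%) passed upwards and 178 genes (1.36%) in either direction. In bulk RNA, more cells that carry a receptor and more receptor RNA per cell cannot be told apart.

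**Figure D1:**
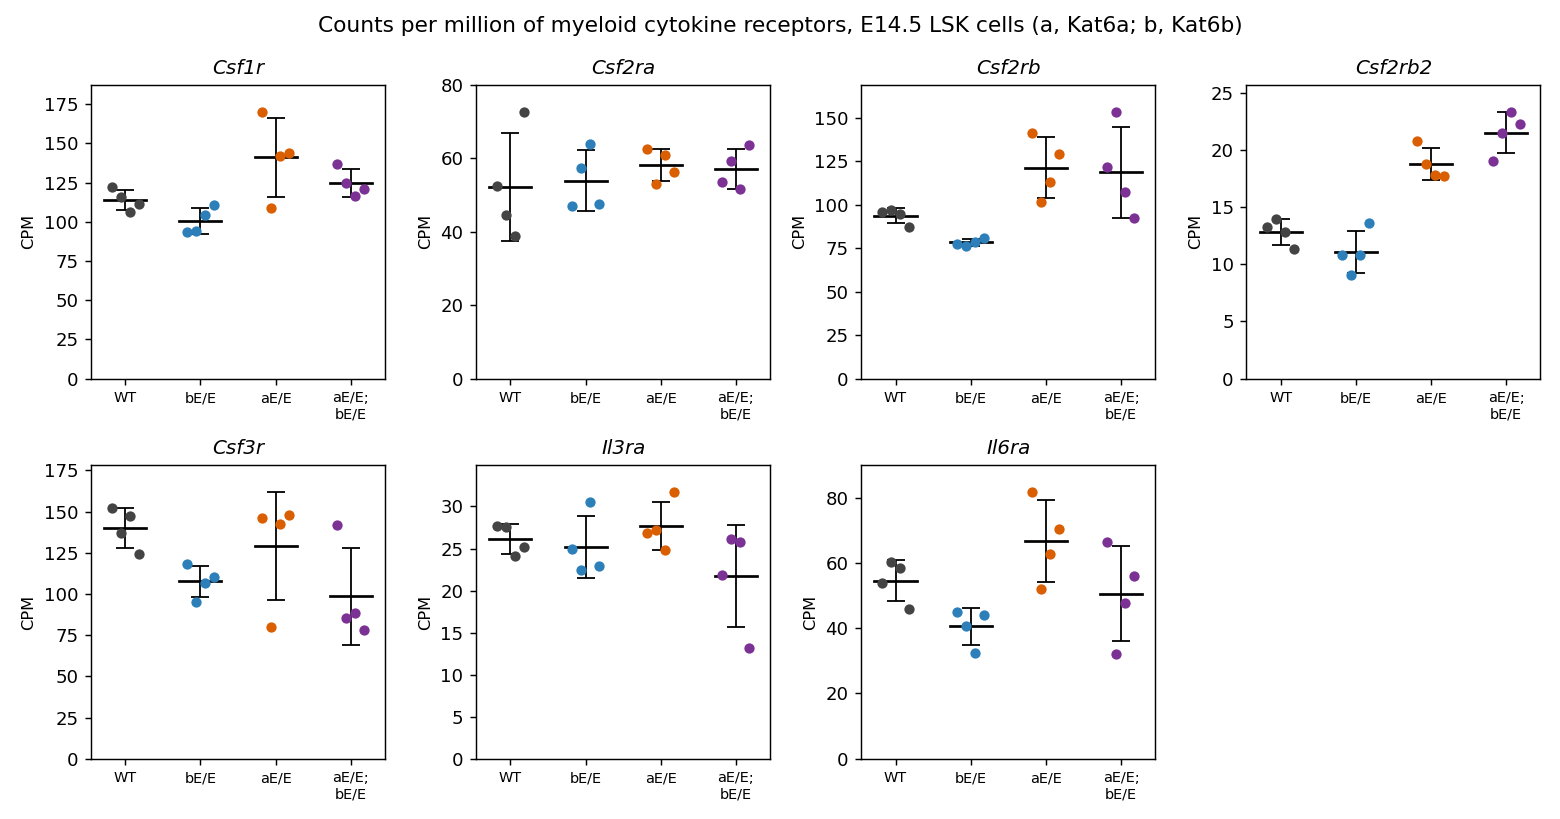
Level of each receptor in each E14.5 LSK library (points, CPM on a linear axis from 0) by genotype, with the mean (black bar) and SD (error bar) of 4 fetuses. Csf2rb2 lies at 17.8 CPM or more in all 8 libraries with the Kat6a mutation and at 13.98 or less in the 8 without it, while Csf3r spreads from 80.0 to 148 CPM within Kat6aE/E.

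The beta chain Csf2rb2 had the lowest level per length of the 7 and the widest fitted difference. It was counted at 13.2, 13.98, 12.8 and 11.3 CPM in the WT libraries, 10.8, 9.11, 10.8 and 13.6 in Kat6bE/E, 20.8, 18.8, 17.9 and 17.8 in Kat6aE/E, and 19.04, 21.5, 23.4 and 22.3 in the double point mutant. All 8 libraries with the Kat6a mutation lay above all 8 without it, as those of 17 genes (0.13%) did. The double point mutant lay above WT without overlap in 200 genes (1.53%). The log2 difference was 0.62 ± 0.11 (SE; 95% interval 0.39 to 0.85) for Kat6aE/E against WT and 0.74 (0.39 to 1.102) for the double point mutant against WT.

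Csf2rb, the beta chain common to GM-CSF, IL-3 and IL-5, was at 95.8, 96.8, 94.7 and 87.1 CPM in WT and narrower still in Kat6bE/E, at 77.5, 76.2, 78.6 and 80.7. It was at 141, 102, 113 and 129 CPM in Kat6aE/E and at 121, 153, 107 and 92.3 in the double point mutant. All Kat6aE/E libraries lay above all WT libraries, as for Csf2rb2 and for 247 genes in all (1.89%), and double point mutant replicate 4 fell inside the WT range. The log2 difference was 0.45 ± 0.06 (0.32 to 0.59) for Kat6aE/E and 0.40 (0.20 to 0.60) for the double point mutant, each against WT, and -0.17 (-0.33 to -0.00) for Kat6bE/E.

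The beta chains are neighbours and near copies, which bears on how their reads are told apart. In the GENCODE annotation of GRCm39, the build the counts were made on, Csf2rb lies at chr15:78209952-78238047 on the + strand and Csf2rb2 at chr15:78166707-78189921 on the - strand, 20030 bases apart, each with 14 exons. Their coding sequences, 2691 and 2637 bases long, matched at 95.2% of 2631 aligned bases, with 126 differences. The encoded chains of 896 and 878 residues matched at 92.0% of aligned residues. Windows of 99 coding bases held 0 to 16 differences with a median of 3. The pair of windows with the fewest and the pair with the most are shown, 5' to 3' on the coding strand, because a read that lies within the first matches both genes while a read from the second matches its own. Capitals mark the bases that differ. The first pair lies in exon 14 (Csf2rb chr15:78232777-78232875, Csf2rb2 chr15:78168973-78169071) and the second in exon 4 (Csf2rb chr15:78223088-78223186, Csf2rb2 chr15:78178545-78178643).
Csf2rb, exon 14: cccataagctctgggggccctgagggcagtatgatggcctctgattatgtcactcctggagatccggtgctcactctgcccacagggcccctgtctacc
Csf2rb2, exon 14: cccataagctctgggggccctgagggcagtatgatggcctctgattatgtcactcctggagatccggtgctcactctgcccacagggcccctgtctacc
Csf2rb, exon 4: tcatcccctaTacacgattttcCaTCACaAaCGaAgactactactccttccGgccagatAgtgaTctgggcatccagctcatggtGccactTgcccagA
Csf2rb2, exon 4: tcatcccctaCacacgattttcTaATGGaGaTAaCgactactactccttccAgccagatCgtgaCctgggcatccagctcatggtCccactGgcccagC

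Of all stretches of 75 bases in the Csf2rb transcript, 11.04% also occurred in Csf2rb2, and 11.1% of those in Csf2rb2 occurred in Csf2rb, so most of each transcript can be read apart at this length. Csf2rb2 made up 12.04 ± 0.471% (SD, n = 4) of the counts of both genes in WT, 12.4 ± 1.55% in Kat6bE/E, 13.5 ± 1.499% in Kat6aE/E and 15.8 ± 3.40% in the double point mutant. The wide spread in the double point mutant came from replicates 3 and 4, at 17.9% (95% Wilson interval 16.03 to 19.9, counting error only) and 19.4% (18.1 to 20.9), while replicates 1 and 2 had 13.6% (12.3 to 14.9) and 12.3% (11.1 to 13.6). Both beta chains were thus higher in Kat6aE/E with close to their WT proportion, and with the counts of both genes added before fitting, the sum was past the FDR threshold in the same 3 comparisons as Csf2rb.

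**Figure D2:**
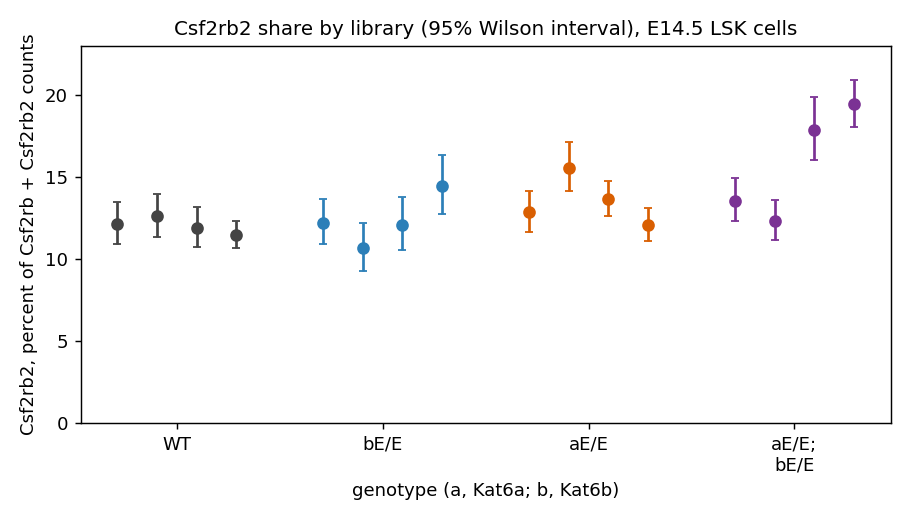
Share of Csf2rb2 (percent, vertical axis) in the summed counts of Csf2rb and Csf2rb2 in each E14.5 library by genotype, with 95% Wilson intervals of counting error. WT libraries lie between 11.5% and 12.6%, and double point mutant replicates 3 and 4 lie highest at 17.9% and 19.4%.

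Il6ra, the IL-6 binding chain (chr3:89771366-89820719, - strand, 10 exons), was at 53.7, 60.3, 58.3 and 45.9 CPM in WT and at 44.96, 40.7, 32.4 and 44.1 in Kat6bE/E, all 4 of which were below the lowest WT library. Kat6aE/E libraries had 81.7, 52.0, 62.6 and 70.5 CPM, of which replicate 2 lay inside the WT range. The double point mutant had 66.5, 32.1, 47.7 and 56.0 CPM and covered the whole WT range. The log2 difference from WT was 0.40 ± 0.09 (0.21 to 0.59) for Kat6aE/E and 0.30 (0.00 to 0.59) for the double point mutant. For the double point mutant the sign turned with the model, since DESeq2 without surrogate variables gave -0.11. In the GENCODE annotation the lncRNA gene Gm42809 on the opposite strand overlaps Il6ra by 497 bases. Of the 75-base stretches of the 8639-base GENCODE transcript of Il6ra, 1.96% occur in Gm42809. The length given with the counts for Il6ra was shorter than 8639 bases, so this share need not hold for the counted sequence.

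Csf2ra, the alpha chain for GM-CSF (chr19:61212395-61216892, - strand, 12 exons), was at 52.5, 44.6, 38.9 and 72.8 CPM in WT. The other genotypes lay within that range, at 53.1 to 62.5 in Kat6aE/E, 46.9 to 64.1 in Kat6bE/E and 51.7 to 63.7 in the double point mutant. The log2 difference between Kat6aE/E and WT was 0.19 with an interval from -0.17 to 0.54, which includes differences as large as those of Il6ra and Csf1r.

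Il3ra, the alpha chain for IL-3 (chr14:8113752-8123508, - strand, 11 exons), was at 27.7, 27.6, 24.1 and 25.2 CPM in WT, 26.8, 27.3, 24.9 and 31.7 in Kat6aE/E, 24.9, 22.4, 30.5 and 22.98 in Kat6bE/E, and 21.8, 26.1, 25.8 and 13.1 in the double point mutant. The groups overlapped, and double point mutant replicate 4 was the lowest of the 16 libraries. Its log2 difference between Kat6aE/E and WT was 0.08 (-0.15 to 0.30). Of the IL-3 receptor chains, the beta chains were higher in Kat6aE/E with intervals that lie above the upper bound for the alpha chain, 0.39 to 0.85 for Csf2rb2 and 0.32 to 0.59 for Csf2rb.

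Csf1r, the M-CSF receptor and a marker of the monocyte and macrophage lineage, was at 122, 116, 106 and 112 CPM in WT, 93.5, 94.2, 104 and 111 in Kat6bE/E, 170, 109, 142 and 144 in Kat6aE/E, and 137, 125, 116 and 121 in the double point mutant. Kat6aE/E replicate 2 lay inside the WT range and the other 3 lay above it. The log2 difference was 0.41 ± 0.07 (0.25 to 0.57) for Kat6aE/E and 0.29 (0.04 to 0.53) for the double point mutant, each against WT. In the GENCODE annotation the 3' end of Csf1r (chr18:61229714-61266535, + strand, 21 exons) overlaps Hmgxb3 on the opposite strand by 2189 bases. Of the 75-base stretches of the 6049-base GENCODE transcript of Csf1r, 22.03% also occur in Hmgxb3. The counts used RefSeq genes, and the length given with them for Csf1r was shorter than 6049 bases. How much of the overlap was counted was not examined. The library kit does not mark strand, so any counted reads from the overlap cannot be told apart. Hmgxb3 itself differed between Kat6aE/E and WT by 0.01 ± 0.07 on the log2 scale (limma FDR = 0.976).

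Csf3r, the G-CSF receptor of granulocyte progenitors (chr4:125918262-125938236, + strand, 17 exons), had the highest mean level per length in WT, where it was at 152, 137, 147 and 125 CPM. All Kat6bE/E libraries lay below the WT range at 118, 95.2, 107 and 110 CPM. Within Kat6aE/E, replicates 1, 3 and 4 were at 146, 143 and 148 CPM and replicate 2 at 80.0. Within the double point mutant, replicate 1 was at 142 CPM and replicates 2 to 4 were at 85.3, 88.7 and 78.3. The 4 lowest values were thus those of the 4 libraries with the highest erythroid sums, 6979 CPM in Kat6aE/E replicate 2 and 15759, 9504 and 9047 in double point mutant replicates 2 to 4, the latter 3 all from litter 1045. The fitted log2 difference from WT was -0.02 (-0.14 to 0.11) for Kat6aE/E and -0.08 (-0.27 to 0.10) for the double point mutant, and DESeq2 without surrogate variables gave -0.51 for the latter. The part of erythroid RNA in the Csf3r values was not tested.

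**Figure D3:**
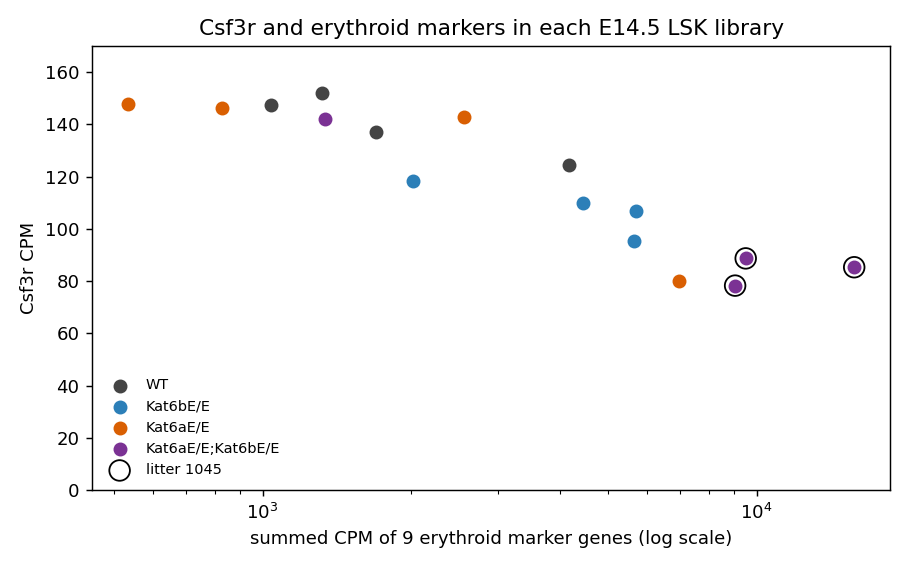
Csf3r (CPM, vertical axis) against the summed CPM of 9 erythroid genes (horizontal axis, log scale) in the 16 E14.5 libraries, coloured by genotype, with a ring around the libraries of litter 1045. The 4 libraries farthest right, at 6979 to 15759 CPM of erythroid RNA, have Csf3r at 78.3 to 88.7 CPM and the other 12 lie between 95.2 and 152.

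Per length of transcript, the receptors in WT ran in the order Csf3r (34.7 ± 3.02 RPKM, the CPM per kilobase of transcript, SD, n = 4), Csf1r (29.4 ± 1.71), Csf2ra (28.2 ± 8.01), Csf2rb (19.2 ± 0.905), Il6ra (16.2 ± 1.89), Il3ra (14.6 ± 0.993) and Csf2rb2 (2.71 ± 0.238). The ranges of Csf3r and Csf1r, of Csf1r and Csf2ra, and of Il6ra and Il3ra overlapped, and those of the other neighbours in this order did not. In Kat6aE/E, Csf1r led at 36.4 ± 6.52 RPKM with a range that overlapped Csf3r at 31.9 ± 8.11, and Csf2rb2 stayed last at 3.97 ± 0.297. In Kat6bE/E the first place fell to Csf2ra at 29.2 ± 4.46 and in the double point mutant to Csf1r at 32.2 ± 2.30, again with ranges that overlapped the next gene. Csf2rb2 was last in all 4 genotypes, with no library reaching the lowest library of the gene before it.

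The calls in Kat6aE/E against WT depended on the model more than the directions did. The signs of Csf1r, Csf2rb, Csf2rb2 and Il6ra were the same in every alternative and with any 1 library left out. In limma the number of receptors past the threshold was 4 with 4 surrogate variables and 3 with 2 or 6 of them, and in edgeR with them it was 2. Without surrogate variables and with all E14.5 libraries fitted it was 0 in limma, edgeR and DESeq2. A limma fit of only the 8 libraries compared, also without surrogate variables, called 2, Csf2rb and Csf2rb2. With a library left out the number of receptors was 0 without Kat6aE/E replicate 1, where 1 gene of all (0.00756%) passed. It was 2 without WT replicate 2 (25 genes of all, 0.189%) and 2 without WT replicate 4 (88 genes of all, 0.666%). Within litter 753, where Kat6aE/E replicate 1 stood beside the 3 WT libraries, the log2 differences were 0.57 for Csf1r, 0.56 for Csf2rb, 0.64 for Csf2rb2, 0.51 for Il6ra and 0.47 for Csf2ra, against 0.01 for Csf3r and 0.02 for Il3ra. Leaving out the 4 libraries of highest erythroid sum was a setting chosen after seeing the data, and it leaves the double point mutant with 1 library. The log2 difference of Csf2rb2 was then 0.51, its lowest among the alternatives.

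The Kat6b mutation alone went with lower rather than higher values. All 7 fitted differences between Kat6bE/E and WT were below 0, with a median of -0.14 where all genes had 0.01 and 53.5% of them were above 0. The sign was not stable for each receptor. For Csf2ra, whose mean was 53.98 CPM in Kat6bE/E and 52.2 in WT, it turned in 3 alternatives (up to 0.05) and with either of 2 libraries left out (0.25 without WT replicate 4 and 0.01 without Kat6bE/E replicate 1), and for Il3ra it turned without Kat6bE/E replicate 2 (0.02). The widest were Il6ra at -0.23 (-0.48 to 0.02) and Csf3r at -0.21 (-0.36 to -0.06). Csf2rb, Csf3r and Il6ra were below WT with no overlap between libraries, as were 226 genes (1.73%). No gene, and so no receptor, passed the FDR threshold in limma, edgeR or DESeq2, and at an unadjusted p under 0.05 limma had 364 genes (2.78%), 148 of them lower (1.13%), Csf2rb and Csf3r included. The number past the FDR threshold was 96 genes (0.727%) without WT replicate 4, with no receptor among them, and 61 genes, Csf3r included, without the 4 libraries of highest erythroid sum. This comparison and those of Kat6aE/E and of the double point mutant with WT use the same WT libraries.

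In the double point mutant, too, the beta chains and Csf1r had fitted values above WT with intervals above 0. Against WT, 0 genes passed the FDR threshold in limma, with a smallest FDR of 0.0618, against 1 gene in edgeR with surrogate variables, 39 in edgeR without them and 262 in DESeq2 without them. At an unadjusted p under 0.05 limma had 896 genes (6.85%), 326 of them higher (2.49%), and Csf1r, Csf2rb, Csf2rb2 and Il6ra were among these. Without double point mutant replicate 1, which leaves 3 fetuses of a single litter, 2170 genes (16.4%) passed the threshold, among them Csf2rb and Csf2rb2 as higher and Csf3r, at -0.40, as lower. Against Kat6aE/E, the differences ranged from -0.34 (Il3ra, -0.72 to 0.05) to 0.12 (Csf2rb2, -0.23 to 0.47). None of the 7 passed an unadjusted p of 0.05 there, as 197 genes (1.51%) did, and 0 genes passed the FDR threshold in limma and in edgeR, and 62 in DESeq2 without surrogate variables. Without double point mutant replicate 1, 1998 genes (15.1%) passed, among them Csf2ra (-0.47) and Csf3r (-0.39) as lower.

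**Figure D4:**
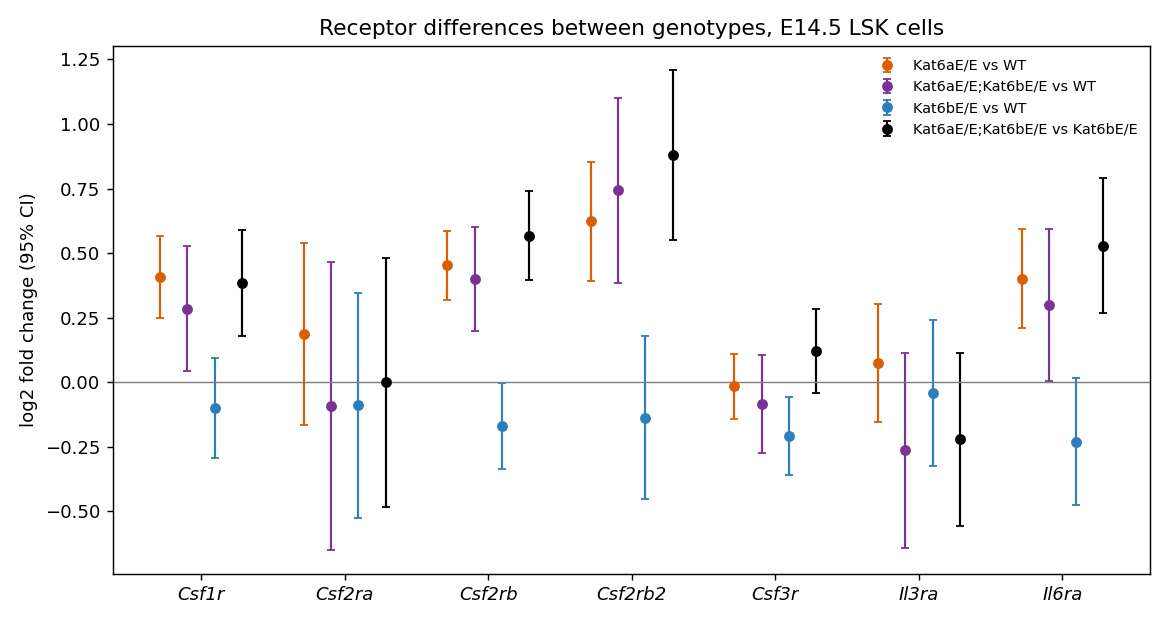
Fitted log2 differences (vertical axis, 0 is no difference) of the 7 receptors (horizontal axis) in 4 comparisons of E14.5 LSK genotypes, with 95% intervals. The differences of Kat6aE/E from WT and of the double point mutant from Kat6bE/E compare different libraries within one fit, and both lie above 0 for Csf1r, Csf2rb, Csf2rb2 and Il6ra.

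The Kat6a mutation could also be read on a Kat6b mutant background. The groups compared share no library with the comparison of Kat6aE/E with WT, but both come from a single fit of all 16 libraries with common surrogate variables, litter correlation and variances. Fitted on only the 8 libraries compared and without surrogate variables, 0 receptors passed here and 2 passed for Kat6aE/E against WT. Between the double point mutant and Kat6bE/E the log2 differences were 0.88 (0.55 to 1.21) for Csf2rb2, 0.57 (0.39 to 0.74) for Csf2rb, 0.53 (0.27 to 0.79) for Il6ra and 0.38 (0.18 to 0.59) for Csf1r. Csf3r had 0.12 (-0.04 to 0.29), Csf2ra -0.00 (-0.48 to 0.48) and Il3ra -0.22 (-0.56 to 0.11). Csf1r, Csf2rb and Csf2rb2 did not overlap between the groups, as 292 genes (2.23%) did not. In limma 193 genes (1.48%) passed the FDR threshold, 72 of them higher (0.551%), with Csf2rb, Csf2rb2 and Il6ra among them. That number of receptors was 0 in limma without surrogate variables, 0 without Kat6bE/E replicate 1 and 1 without Kat6bE/E replicate 2. All genes past the threshold numbered 2929 (22.1%) without double point mutant replicate 1, 0 without Kat6bE/E replicate 1 and 4 (0.0302%) without Kat6bE/E replicate 2. Within litter 970, which held 1 fetus of each genotype, the differences were 0.81 for Csf2rb2, 0.65 for Csf2rb, 0.56 for Il6ra and 0.55 for Csf1r.

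Kat6aE/E against Kat6bE/E gave differences of 0.76 (0.46 to 1.06) for Csf2rb2, 0.63 (0.39 to 0.87) for Il6ra, 0.62 (0.46 to 0.78) for Csf2rb and 0.51 (0.32 to 0.69) for Csf1r. All 4 were past the FDR threshold, as were 270 genes (2.07%), 147 of them higher (1.12%). Their number was 1 without Kat6aE/E replicate 1, 1 without Kat6aE/E replicate 4, 2 without Kat6bE/E replicate 2, and without surrogate variables 0 in limma and 4 in DESeq2. All genes past the threshold numbered 3 (0.0227%) without Kat6aE/E replicate 1, 8 (0.0605%) without Kat6aE/E replicate 4 and 24 (0.181%) without Kat6bE/E replicate 2. Csf2rb, Csf2rb2 and Il6ra did not overlap, as 688 genes (5.26%) did not on the higher side. The departure of the double point mutant from the sum of both single mutants ranged from -0.30 (Il3ra, -0.71 to 0.12) to 0.26 (Csf2rb2, -0.15 to 0.67). No receptor passed an unadjusted p of 0.05 for this departure, which 652 genes (4.99%) did, and 0 genes passed the FDR threshold in limma, edgeR or DESeq2. Without double point mutant replicate 1, 1436 genes (10.9%) passed in limma, with no receptor among them.

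Of the ligands Csf1, Il34, Csf2, Csf3, Il3, Il5 and Il6, only Csf1 passed the filter on low counts, and it differed between Kat6aE/E and WT by -0.38 ± 0.18 (limma FDR = 0.403). Of 24 other cytokine receptors tested 0 rose and 1 fell in Kat6aE/E, the IL-7 receptor alpha chain Il7r of lymphoid progenitors, by 0.87 on the log2 scale (FDR = 0.0299). Kit, the stem cell factor receptor, had 0.01 (FDR = 0.957) and Flt3, a receptor of multipotent and lymphoid progenitors, 0.31 ± 0.16 (FDR = 0.488). Of all genes, 178 (1.36%) passed the FDR threshold between Kat6aE/E and WT, 96 of them higher (0.734%), and 1639 (12.5%) had an unadjusted p under 0.05. These shares apply to the list counts for this comparison here and below. The median over the 24 other receptors was 0.09, against 0.40 for the 7 receptors.

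None of 11 JAK and STAT genes passed the threshold in Kat6aE/E against WT, 1 having an unadjusted p under 0.05. Jak1, which serves gp130, had a log2 difference of -0.00 and Stat5b, a factor downstream of the beta chains, -0.10. Of 16 feedback inhibitors 1 rose, the STAT5 target Socs2, by 0.72 ± 0.11 (FDR = 0.00707), and it had 0.66 ± 0.17 in the double point mutant (FDR = 0.309). The phosphatase Ptpn6 (SHP-1) had 0.15 and the lipid phosphatase Inpp5d (SHIP-1) 0.03. Of 15 adaptors and kinases 1 rose, the tyrosine kinase Fes of myeloid cells, by 0.36 ± 0.08 (FDR = 0.0299), while Grb2 and Syk had 0.03 and 0.02. Of 12 genes that cytokines induce, 0 passed (2 at an unadjusted p under 0.05). Among them Ccnd2, a D-type cyclin, had 0.35 ± 0.09 (FDR = 0.0900) and Myc -0.01.

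Of 15 myeloid transcription factors tested 1 rose in Kat6aE/E against WT, Irf8, which directs monocyte and dendritic cell fate, by 0.45 ± 0.09 (FDR = 0.0299). Spi1, which encodes PU.1, had 0.16, Runx1 -0.11 and Myb -0.10. Against Kat6bE/E, 4 of the 15 were higher in Kat6aE/E: Cebpb (0.62, FDR = 0.0102), Irf8 (0.53, FDR = 0.0317), Cebpa (0.45, FDR = 0.0152) and Spi1 (0.40, FDR = 0.0152). Of all genes, 147 (1.12%) were past the threshold as higher in that comparison. Cebpb, Cebpa and Spi1 were named here after their values were seen, and all encode transcription factors of myeloid commitment. In Kat6bE/E and in the double point mutant against WT, 0 of 13071 genes passed the threshold in limma, so no list gene could. At an unadjusted limma p under 0.05, 5 of the 15 were lower and 0 higher in Kat6bE/E against WT, where 148 of all genes (1.13%) were lower. The list had a median of -0.19 there and of -0.03 in Kat6aE/E against WT (4 higher and 1 lower). The comparison of Kat6aE/E with Kat6bE/E thus holds the differences of both from WT.

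Markers of other cells moved beside the receptors. Of 12 monocyte and granulocyte genes tested, 1 rose in Kat6aE/E against WT, lysozyme Lyz2, by 0.54 ± 0.08 (limma FDR = 0.00548), and the list had a median of 0.44, with 5 of 12 higher and 0 lower at an unadjusted p under 0.05. Its summed level, most of it Mpo, overlapped between groups, at 4786 to 7506 CPM in WT, 5818 to 6786 in Kat6aE/E, 4301 to 6276 in Kat6bE/E and 4982 to 6679 in the double point mutant. Members named after their values were seen were further apart. Lyz2 was at 116 to 140 CPM in WT, 103 to 130 in Kat6bE/E, 151 to 198 in Kat6aE/E and 146 to 511 in the double point mutant. Itgam was at 46.4 to 51.2 CPM in WT, 52.7 to 64.3 in Kat6aE/E and 62.96 to 114 in the double point mutant. Both lay above WT without overlap in both genotypes with the Kat6a mutation. Of all genes, 247 (1.89%) did so in Kat6aE/E and 200 (1.53%) in the double point mutant. For the genes of granule and neutrophil proteins, also named after their values were seen, the median was 632 CPM in the double point mutant and 105 in WT for S100a9, 104 and 16.7 for Camp, 164 and 15.05 for Ngp, and 141 and 13.97 for Ltf. Double point mutant replicates 2 to 4 share litter 1045. The whole list had a fitted median of 0.30 in the double point mutant against WT. At an unadjusted p under 0.05, 2 of its 12 genes were higher and 0 lower, where 326 of all genes (2.49%) were higher. The macrophage list, of genes that mature macrophages share with Csf1r, had a summed level of 137 to 225 CPM in WT, 77.2 to 149 in Kat6aE/E and 91.1 to 293 in Kat6bE/E. In the double point mutant it was 94.3 CPM in replicate 1 and 249.7, 227 and 254 in replicates 2 to 4, above the WT range, while the fitted median log2 difference of the list from WT was -0.74. Between Kat6aE/E and WT the list had a median log2 difference of -0.69 and 0 of 11 genes past the threshold (1 higher and 4 lower at an unadjusted p under 0.05). Their part in the receptor values was not tested.

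The lymphoid list fell on the other side. Rag1 and Rag2, the recombinase of lymphocytes, fell in Kat6aE/E against WT by 1.46 (FDR = 0.0216) and 0.57 (FDR = 0.0295), and 3 of 7 lymphoid genes fell in all, Il7r included. Their summed level was 111 to 202 CPM in WT, 126 to 149 in Kat6bE/E, 42.5 to 83.8 in Kat6aE/E and 14.9 to 75.4 in the double point mutant, with no overlap between genotypes with and without the Kat6a mutation. The mast cell protease Cpa3 fell by 1.04 (FDR = 0.000582) and the megakaryocyte integrin Itga2b by 0.78 (FDR = 0.0179). The summed stem and progenitor markers ranged from 1268 to 2143 CPM in WT and from 1439 to 2212 in Kat6aE/E, with 0 of 12 genes past the threshold (1 higher and 2 lower at an unadjusted p under 0.05).

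Across the 16 libraries, Pearson correlations of log2 CPM described how the receptors varied together, in points that share genotype, litter and cell makeup. Csf1r and Csf2rb had r = 0.823, Csf2rb and Csf2rb2 0.777, Csf1r and Il6ra 0.682 and Csf3r and Il6ra 0.588. Csf2rb2 and Csf3r had r = -0.228, so the receptors did not follow a single profile. The 5 other genes closest to the mean profile of the 7 were Ncf1 (0.929), Irf5 (0.909), Fes (0.898), Kcnab2 (0.879) and Glipr1 (0.870). The closest single genes were Psap for Csf1r (0.927), Krt80 for Csf2rb (0.946), Ifitm6 for Csf2rb2 (0.923), Akna for Il6ra (0.935), Rasa3 for Csf3r (0.955), Apobec1 for Il3ra (0.915) and Tom1 for Csf2ra (0.831).

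Promoters were read for 5 of the 7 genes from the RefSeq table on GRCm38.p6, and not for Csf1r and Csf2rb. Upstream sequences of 250 bases ending at the start site are shown for Csf2rb2 and Il6ra, which were higher in Kat6aE/E, and for Csf3r, which was not. They lie at chr15:78305722-78305971 (- strand), chr3:89913197-89913446 (- strand) and chr4:126024409-126024658 (+ strand), and capitals mark motif matches.
Csf2rb2: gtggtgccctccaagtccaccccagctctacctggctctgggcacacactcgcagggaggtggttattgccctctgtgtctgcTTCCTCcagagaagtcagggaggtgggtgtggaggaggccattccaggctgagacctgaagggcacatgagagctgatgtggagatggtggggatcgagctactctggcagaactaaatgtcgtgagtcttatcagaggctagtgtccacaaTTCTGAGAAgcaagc
Il6ra: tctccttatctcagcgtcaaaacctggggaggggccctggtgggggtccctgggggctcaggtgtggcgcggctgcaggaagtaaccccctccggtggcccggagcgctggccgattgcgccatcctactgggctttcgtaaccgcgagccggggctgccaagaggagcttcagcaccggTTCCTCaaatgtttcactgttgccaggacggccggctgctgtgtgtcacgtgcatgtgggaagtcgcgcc
Csf3r: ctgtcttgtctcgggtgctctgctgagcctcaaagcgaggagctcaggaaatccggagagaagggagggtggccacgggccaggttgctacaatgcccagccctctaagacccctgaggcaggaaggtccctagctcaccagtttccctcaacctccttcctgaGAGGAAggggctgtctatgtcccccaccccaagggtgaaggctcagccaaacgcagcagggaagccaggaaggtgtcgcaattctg

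The letters searched, on both strands, were GAGGAA (the ETS letters bound by PU.1), TGTGGT (RUNX), TTGCNNAA (C/EBP) and TTCNNNGAA (STAT), and no overlapping matches of different motifs were found in these windows. GAGGAA occurred in 4 of the 5 promoters, with 1 match each in Csf2rb2, Il6ra and Csf3r and 2 in Csf2ra, and in 23.3% of 32851 promoters of the same length. The STAT letters occurred in Csf2rb2 alone, 15 bases before the start, and in 7.02% of all promoters, and the C/EBP letters in Il3ra alone (9.56% of all). The RUNX letters occurred in none of the 5 (14.05% of all).

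The E9.5 embryos gave samples that played no part in choosing the receptors. Whole embryos held much less receptor RNA than LSK cells: in WT the mean was 11.8 CPM for Csf2rb, 8.34 for Csf2ra, 8.01 for Il3ra, 3.09 for Csf2rb2, 2.09 for Csf1r and 0.747 for Il6ra. Csf3r, at 0.0623 to 0.996 CPM over all 24 embryos, did not pass the filter on low counts. The other 6 were tested against WT in 5 genotypes, and none passed the FDR threshold in limma, edgeR or DESeq2, with 1 exception. Csf2ra passed in the double point mutant with 6 surrogate variables, a setting in which 811 genes passed. In limma the share of all genes called was 2.64% in Kat6a-/-, 0.508% in Kat6b-/-, 0.275% in Kat6aE/E, 0% in Kat6bE/E and 2.91% in the double point mutant.

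At E9.5 the Kat6aE/E differences were 0.32 (-0.51 to 1.16, limma FDR = 0.846) for Csf2rb, 0.23 (-0.53 to 1.00, FDR = 0.887) for Csf2rb2, 0.34 (-0.17 to 0.85, FDR = 0.689) for Csf1r and 0.07 (-0.62 to 0.75, FDR = 0.974) for Il6ra. These intervals include both 0 and the values seen in LSK cells, so a difference of that size was not detectable with 4 embryos per genotype at a depth of 8401990 to 23339359 read pairs. The widest differences were those of the beta chains in Kat6a-/- embryos, 1.201 ± 0.36 for Csf2rb2 (FDR = 0.0836) and 1.13 ± 0.39 for Csf2rb (FDR = 0.149). The Kat6a-/- embryos spread from 10.5 to 40.5 CPM for Csf2rb, overlapping the WT range of 9.26 to 14.2. At an unadjusted p under 0.05, which 16.9% of genes passed in Kat6a-/-, both beta chains were included.

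Csf2ra went the other way at E9.5, with -0.51 ± 0.17 in the double point mutant (FDR = 0.0902) and -0.33 ± 0.15 in Kat6aE/E (FDR = 0.435). Il6ra had 0.81 ± 0.34 in Kat6b-/- (FDR = 0.318) and Csf1r 0.57 ± 0.25 in the double point mutant (FDR = 0.207). Il3ra stayed between -0.17 and 0.05 in all 5 comparisons.

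**Figure D5:**
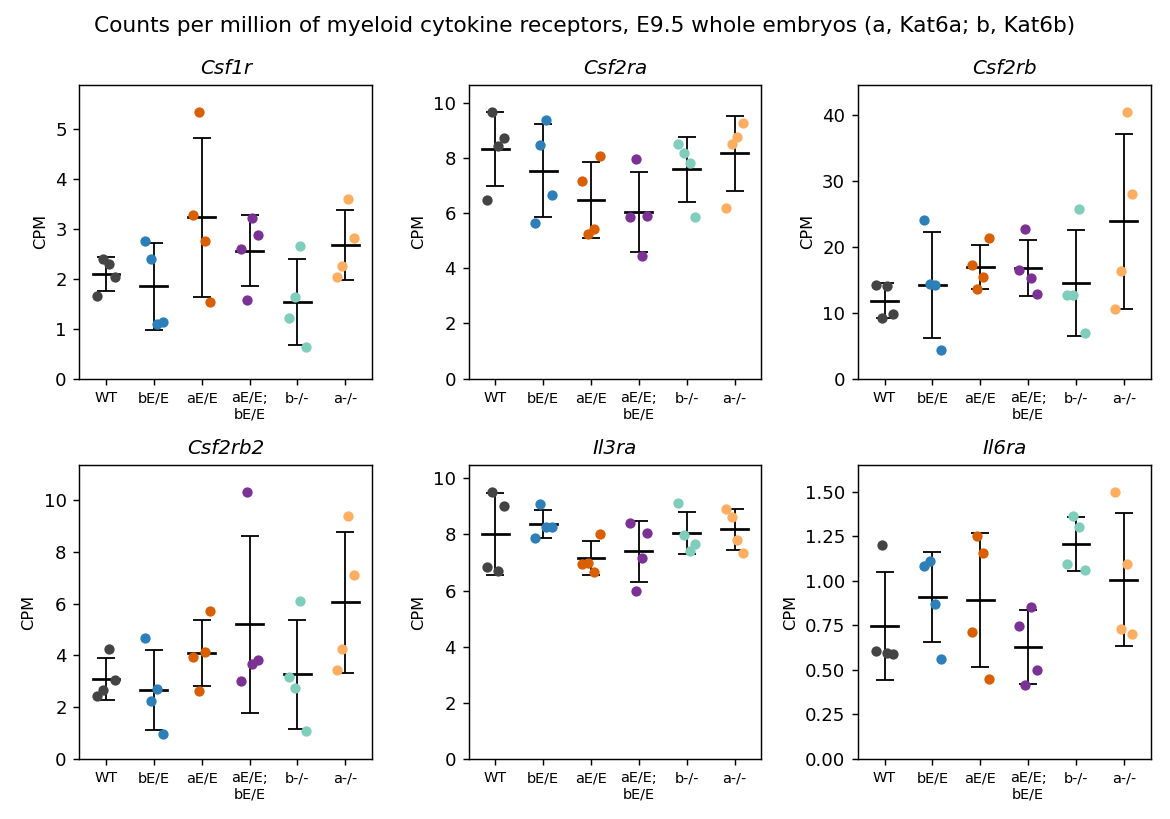
Level of the 6 tested receptors in each whole E9.5 embryo (points, CPM on a linear axis from 0) by genotype, with the mean (black bar) and SD (error bar) of 4 embryos. All mutant groups overlap WT, and Csf2rb spreads widest in Kat6a-/-, from 10.5 to 40.5 CPM.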

How the data were processed

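RNA-seq was made from sorted E14.5 fetal liver LSK cells and whole E9.5 embryos, 40 libraries, 4 per genotype, each from a separate fetus or embryo. The authors aligned reads to mm39 with Rsubread and counted read pairs per RefSeq gene with featureCounts, and they deposited raw counts per gene. Labels and methods differ on read length, sequencer and RNA input, so 75 and 66 bases were both used for the sequence comparison. The 7 members and all gene lists were chosen with earlier results of these data known.

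Following the study's methods, genes that code for proteins, less those on chromosome Y, were filtered (filterByExpr) and TMM-normalised. Each stage was fitted separately across all genes with genotype, 4 surrogate variables (wsva), voom weights and litter as a random block (litter correlation 0.331 at E14.5 and 0.107 at E9.5), with robust empirical Bayes moderation and Benjamini-Hochberg FDR under 0.05 (R 4.3.3, edgeR 4.0.16, limma 3.58.1). Of 26411 genes, 26359 matched the gene table that gave the gene type. Correlations used log2 CPM with a prior count of 2. The procedure was tested on simulated counts with known changes, drawn without litter effects or hidden factors. Such counts cannot check the surrogate variables or the litter block. The genes named were the 7 receptors, Kat6a, list genes with FDR under 0.05 in an E14.5 comparison with WT, highly expressed list genes that did not pass, and the genes most alike, with additions marked in the text.

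Alternatives were 0, 2 or 6 surrogate variables, no litter block, a replicate block, edgeR and DESeq2 (1.42.0), DESeq2 size factors, no filter, all gene types, only the 8 libraries compared, summed beta chain counts and leaving out each library. The fit of only the 8 libraries compared held no surrogate variables. The sequence reads were not analysed here, and how reads that match both beta chains were counted is not given in the sources used here. Where 3 libraries of a group share a litter, litter and genotype are partly confounded.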

Additional observations from a re-analysis of the deposited data

Results flagged for a closer look

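Of 70 groups of 4 libraries (each receptor in each genotype and stage), 4 held a library whose gap to the nearest other exceeded 0.829 of the group's range. Chance gives about 1 in 20 such groups, so this number is about what chance gives. At E14.5, Csf3r was at 80.0 CPM in Kat6aE/E replicate 2, where the others had 143 to 148. Csf3r was at 142 CPM in double point mutant replicate 1, the fetus of litter 970, where the 3 fetuses of litter 1045 had 78.3 to 88.7. At E9.5, Csf2rb2 was at 10.3 CPM in double point mutant replicate 2, where the others had 3.00 to 3.80, and it made up 31.2% of the beta chain counts of that embryo (95% Wilson interval 27.3 to 35.5). Il6ra was at 1.2005 CPM in WT replicate 2 at E9.5, where the others had 0.590 to 0.605, a level of 7 to 14 counts per library in that group.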

How the results depend on the processing

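The number of receptors past an FDR of 0.05 moved with the model in several comparisons, and the cause was not tested. For Kat6aE/E against WT it was 4, and 0 without surrogate variables on all E14.5 libraries (limma, edgeR and DESeq2 alike). It was 2 in edgeR with them, 1 without the litter block and 2 with only the 8 libraries compared. That last setting, here and below, fitted fewer samples and also held no surrogate variables, so these changes cannot be told apart. For Kat6aE/E against Kat6bE/E the number was 4, and 0 in limma and in edgeR without surrogate variables and 0 with only the 8 libraries. For the double point mutant against Kat6bE/E it was 3, and 0 in limma and 1 in edgeR without surrogate variables, 0 with only the 8 libraries and 5 without the 4 libraries of highest erythroid sum, which leaves the double point mutant with 1 library assumed to vary like the other groups. Against WT the double point mutant had 0, and 1 in edgeR and in DESeq2 without surrogate variables (Csf2rb2) and 1 without those 4 libraries (Csf2rb). Kat6bE/E against WT had 0, and 1 without those 4 libraries (Csf3r). At E9.5 the double point mutant had 0, and 1 with 6 surrogate variables (Csf2ra).

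With each library left out in turn, the number of receptors ranged from 0 to 4 for Kat6aE/E against WT, 1 to 5 for Kat6aE/E against Kat6bE/E, 0 to 3 for the double point mutant against Kat6bE/E, 0 to 3 against WT and 0 to 2 against Kat6aE/E. The number of all genes called ranged over the alternatives from 0 to 303 (178 as reported) for Kat6aE/E against WT, 0 to 1333 (193) for the double point mutant against Kat6bE/E, 0 to 1213 (270) for Kat6aE/E against Kat6bE/E, and 0 to 262 (0) for the double point mutant against WT. With libraries left out, the last ranged from 0 to 2170. At E9.5 it ranged from 111 to 631 (375) for Kat6a-/-, 0 to 169 (72) for Kat6b-/-, 0 to 122 (39) for Kat6aE/E and 0 to 811 (413) for the double point mutant.

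The log2 differences of Csf1r, Csf2rb, Csf2rb2 and Il6ra between Kat6aE/E and WT stayed between 0.28 and 0.65 under all alternatives and omissions. Il6ra in the double point mutant against WT ranged from -0.11 to 0.33 over alternatives and omissions, and Csf3r from -0.51 to 0.01. Same-numbered libraries did not in general deviate together (correlations from -0.427 to 0.353 at E14.5 and from -0.148 to 0.311 at E9.5), so the replicate numbers were not taken as pairs. Replicate 4 at E9.5 was an exception. In each mutant genotype it was closest to replicate 4 among the WT embryos, with correlations from 0.106 to 0.311. With a replicate block, 0 receptors passed for Kat6aE/E against WT and 0 for the double point mutant against Kat6bE/E, and 4 for Kat6aE/E against Kat6bE/E.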
